A study of Mus musculus with 2 samples.

Results

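Small Cajal body-specific RNAs (scaRNAs) were examined in T cells of the mouse, naive CD4 against naive CD8. Members were chosen by symbol and level: every Snora, Snord or Scarna symbol followed by a digit, with an RPKM (reads per kilobase of gene per 1000000 reads) of 1 or more in at least 1 library. The rule took 9 of 23167 symbols, all of them Scarna genes: Scarna2, Scarna3a, Scarna3b, Scarna6, Scarna8, Scarna9, Scarna10, Scarna13 and Scarna17. Nucleolar H/ACA and C/D box RNAs under Snora and Snord symbols are not analysed here, so the classes could be compared only through the boxes that the scaRNAs themselves carry. The cells came from spleen and lymph nodes of Foxp3-GFP mice on a C57/BL6 background, animals that report the regulatory T cell factor Foxp3 by fluorescence. Sorting kept cells without GFP or CD25 that were low for CD44 and high for CD62L, in both populations. Each gave 1 library of ribosomal-RNA-depleted total RNA, with no sex, age or number of animals in the labels. The number of animals behind a library was therefore unknown, and no difference below has a replicate check or a p-value.

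ScaRNAs are guide RNAs of the nucleus. They resemble the small nucleolar RNAs that guide chemical modification of ribosomal RNA, but they gather in Cajal bodies and guide the modification of spliceosomal small nuclear RNAs. A C/D box RNA works with fibrillarin and its partners to direct 2′-O-methylation, and an H/ACA box RNA works with dyskerin and its partners to direct the change of uridine to pseudouridine. Some scaRNAs hold both kinds of domain. Most are cut out of introns of other genes, called host genes, while a few have a promoter of their own. In human cells SCARNA10 (U85) is a mixed guide for the U5 RNA, SCARNA2 and SCARNA9 are methylation guides for U2, and SCARNA8 (U92) is a pseudouridine guide for U2. Human SCARNA17 (U91) guides U4 and U12, SCARNA6 (U88) is a mixed RNA, and SCARNA3 and SCARNA13 (U93) are of the H/ACA kind.

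The length that entered each RPKM was recovered from the deposited values, and it bears on which part of each RNA was measured. It was 60 bases for Scarna2, 117 for Scarna3a, 123 for Scarna3b, 247 for Scarna6, 117 for Scarna8, 41 for Scarna9, 70 for Scarna10, 272 for Scarna13 and 61 for Scarna17. For 8 of the 9 members this was 1 base under the length of RefSeq's entry for that gene, and for Scarna13 it was 272 against 275 bases. The recovered length was chosen as the multiple nearest 1 base under RefSeq's length, so this match is partly built in. GENCODE M21 transcripts were longer for several members, at 414 bases for Scarna2, 325 for Scarna10 and 70 for Scarna9. RefSeq's stretch covered 14.7% of the Scarna2 transcript, 21.8% of Scarna10 and 60% of Scarna9. The level of Scarna9, for one, rests on 41 bases. Levels set side by side between members carry that limit, while the ratio of a member between libraries does not depend on its length.

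The stretch that RefSeq annotates is shown in capitals in the transcripts where it covers the smallest share, because its length is within 1 base of that behind the deposited values. Sequences are GENCODE M21 transcripts or their last 150 bases, 5′ to 3′, on build GRCm38. The stretch shown lies at chr6:125186359-125186508 (minus strand) for Scarna10, at chr3:108554338-108554487 (minus strand) for Scarna2 and at chr9:15326264-15326333 (minus strand) for Scarna9.
Scarna10: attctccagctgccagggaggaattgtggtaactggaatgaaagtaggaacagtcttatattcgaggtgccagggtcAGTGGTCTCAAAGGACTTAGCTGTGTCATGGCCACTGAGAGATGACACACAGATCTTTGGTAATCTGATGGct
Scarna2: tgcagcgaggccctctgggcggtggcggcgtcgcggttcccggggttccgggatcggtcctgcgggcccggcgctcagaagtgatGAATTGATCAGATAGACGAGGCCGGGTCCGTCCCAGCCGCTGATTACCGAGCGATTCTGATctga
Scarna9: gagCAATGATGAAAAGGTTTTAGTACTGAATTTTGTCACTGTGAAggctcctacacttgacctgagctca

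Box letters were searched on the RNA strand in the GENCODE transcripts of the 8 members other than Scarna17, whose sequence is not shown. The C box was read as ATGATGA or GTGATGA anywhere, the D box as CTGA within the last 12 bases, and the ACA box as ACA within the last 6 bases. Scarna2, Scarna6, Scarna9 and Scarna10 held the C box letters and had the D box letters near their end. Scarna3a, Scarna3b, Scarna8 and Scarna13 held no such C box and had ACA near their end, and none of the 8 had both ends. Of 1558 GENCODE snoRNA and scaRNA transcripts, 22.9% held the C box letters, 29.7% the D box letters near the end and 46.5% the ACA letters near the end. The C box lay at base 6 in Scarna6, Scarna9 and Scarna10 and at base 345 in Scarna2. These matches describe letters and show no function. The map of the transcripts sets them beside the stretch that RefSeq annotates.

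**Figure D1:**
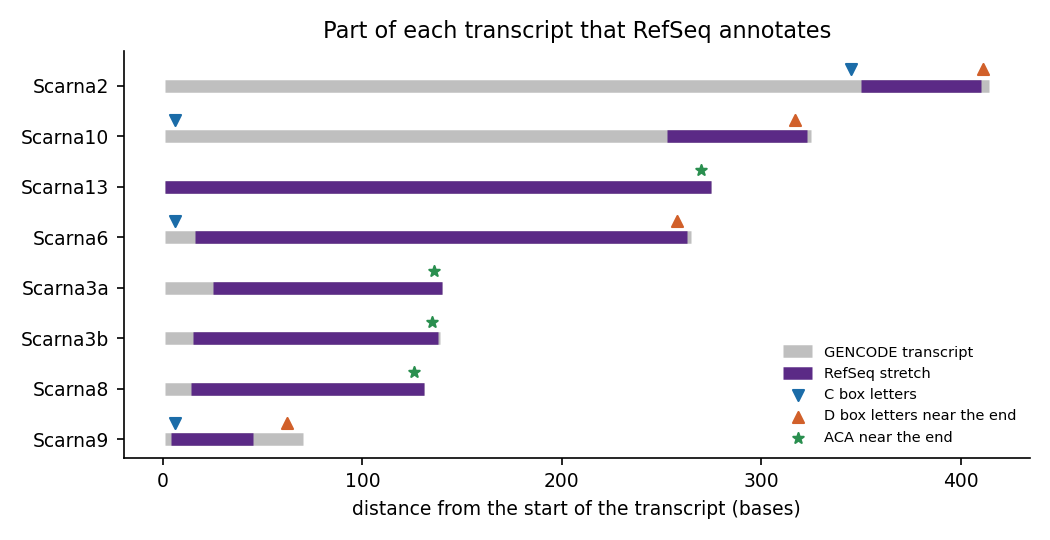
Each grey bar is a GENCODE transcript drawn to scale in bases from its start, with the stretch of RefSeq's entry in purple and marks for C box, D box and ACA letters; Scarna17 is not drawn. The purple stretch is 61 of 414 bases in Scarna2 and 71 of 325 in Scarna10, and the whole 275 bases in Scarna13.

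Levels chose the members, so they are given as a description. In each library all 9 members reached 1 RPKM, and no matching symbol was below that minimum. The lowest inside it were Scarna3a and Scarna3b in both libraries, the lowest of all being Scarna3a in CD4 at 7.95 RPKM. The median member was at 656 RPKM in CD4 against 1282 RPKM in CD8. Over the 10228 symbols with 1 RPKM or more in at least 1 library, called compared symbols here, the median was 14.1 RPKM in CD4 against 13.4 RPKM in CD8. Scarna10 ranked 7 in CD4 and 11 in CD8 among all 23167 symbols. Scarna17 ranked 25 in CD4 and 9 in CD8.

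**Figure D2:**
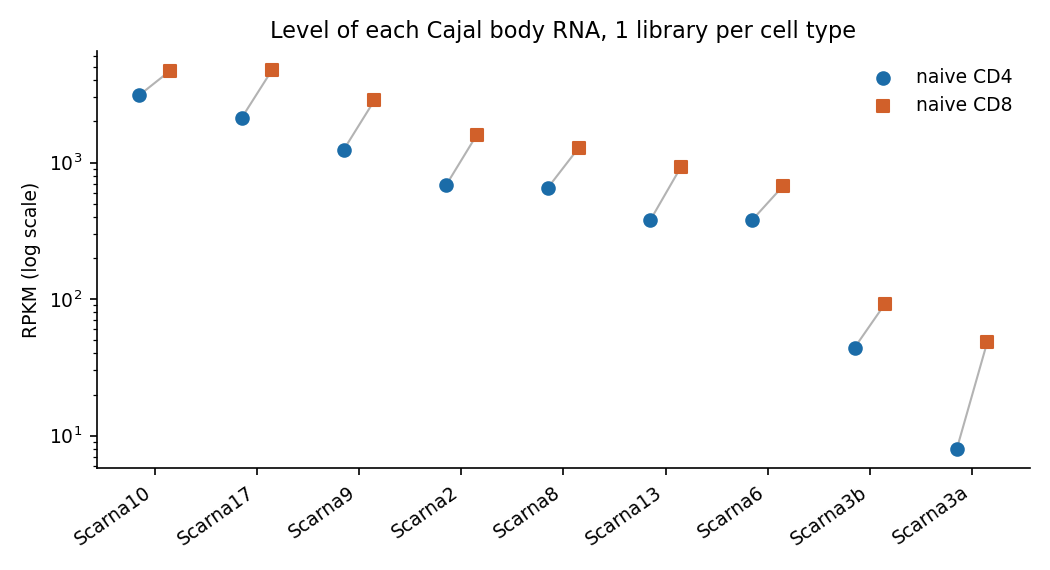
RPKM on a log axis for each member, with a circle for the naive CD4 library and a square for the naive CD8 library, 1 library each. Every circle lies below its square, and Scarna3a and Scarna3b lie far below the other 7 in both libraries.

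All 9 scaRNAs were lower in the CD4 library, against 40.5% of the compared symbols. The 9 together had 17795 reads in CD4, or 719 per 1000000 reads, against 33819 reads in CD8, or 1418 per 1000000 reads. The CD4 over CD8 ratio of these sums was 0.507 (95% counting interval 0.498 to 0.517). The set took 0.0719% of the CD4 total (0.0709% to 0.0730%) and 0.142% of the CD8 total (0.140% to 0.143%). Intervals are exact Clopper-Pearson intervals on the reads recovered from the RPKM, so they cover counting error only and compare 2 libraries, not the cell types. In bulk RNA such as this, fewer cells of a type and less of an RNA per cell cannot be told apart.

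A difference was counted as at least 2-fold where log2((CD4 RPKM + 1)/(CD8 RPKM + 1)) was 1 or more, or -1 or less. By that size rule 6 of the 9 were at least 2-fold lower in CD4, against 3.07% of the 10228 compared symbols. None of the 9 was at least 2-fold higher in CD4, against 2.41% of the compared symbols. The median log2 difference (CD4 minus CD8) was -1.17 over the members, with a range of -2.47 to -0.59, and 0.08 over all compared symbols. A counting interval wholly below a ratio of 1 was found for all 9 members and for 26.8% of compared symbols with recovered reads. An interval wholly past 2-fold was found for 5 members (Scarna2, Scarna3a, Scarna9, Scarna13 and Scarna17), against 2.79% of those symbols. When the RPKM of both libraries were made to sum to 1000000 each, 3 members passed the size rule, namely Scarna2, Scarna3a and Scarna13, and the median difference was -0.96. Under that scaling Scarna9 stood at -0.99, Scarna17 at -0.96 and Scarna3b at -0.85, and all 9 stayed below 0. The sums include the members themselves, so this scaling is not independent of them. The shares of compared symbols above are for unscaled values, and none is given for this scaling.

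Among members that end in a D box, Scarna10, a mixed guide in human cells, was the highest in CD4 and the closest to equal. It was at 3121 RPKM (5405 reads) in CD4 against 4699 RPKM (7847 reads) in CD8, a ratio of 0.664 (0.641 to 0.688). Scarna6, whose human counterpart is also mixed, was next, at 381 RPKM (2327 reads) in CD4 against 673 RPKM (3964 reads) in CD8. Its ratio of 0.566 (0.537 to 0.596) stayed under the 2-fold rule. The intervals of these ratios do not overlap each other, nor that of any of the other 7 members except Scarna8 and Scarna3b, which Scarna6's interval touches.

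Scarna9 and Scarna2, methylation guides in human cells, were lower in CD4 by more than 2-fold and by nearly the same ratio. Scarna9 was at 1242 RPKM (1260 reads) in CD4 against 2851 RPKM (2788 reads) in CD8, a ratio of 0.436 (0.407 to 0.466). Scarna2 was at 679 RPKM (1008 reads) in CD4 against 1584 RPKM (2267 reads) in CD8, a ratio of 0.429 (0.398 to 0.462). Scarna17, a C/D box guide in human cells, stood at 2118 RPKM (3197 reads) in CD4 against 4784 RPKM (6961 reads) in CD8. Its ratio of 0.443 (0.424 to 0.462) overlapped both, so these 3 RNAs could not be told apart at this depth.

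Of the members that end in ACA, Scarna13 had the most reads. It was at 378 RPKM (2541 reads) in CD4 against 926 RPKM (6005 reads) in CD8, a ratio of 0.408 (0.389 to 0.427). Scarna8 was at 656 RPKM (1900 reads) in CD4 against 1282 RPKM (3579 reads) in CD8, a ratio of 0.512 (0.484 to 0.541) just short of the 2-fold rule. The 2 intervals do not overlap. Summed by kind of end, the 4 ACA-ended RNAs had 4598 reads in CD4 and 9992 in CD8, a ratio of 0.444 (0.428 to 0.459). The 4 that end in a D box had 10000 reads in CD4 and 16866 in CD8, a ratio of 0.572 (0.558 to 0.586). Scarna10 supplied 5405 of those 10000 CD4 reads, and the single ratios of both kinds overlap in range, from 0.163 to 0.512 for ACA ends and from 0.429 to 0.664 for D box ends. Scarna17, a C/D box guide in human cells whose sequence was not searched, is in neither sum. Its ratio was 0.443 (0.424 to 0.462), so the D box sum does not cover every C/D box guide of the set. The members are not replicates of a class, so no test of the classes was made.

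Scarna3a and Scarna3b, a pair of related genes on different chromosomes, were the lowest members and Scarna3a differed most. Scarna3a was at 7.95 RPKM (23 reads) in CD4 against 48.7 RPKM (136 reads) in CD8, a ratio of 0.163 (0.10 to 0.255). Scarna3b was at 44.0 RPKM (134 reads) in CD4 against 92.7 RPKM (272 reads) in CD8, a ratio of 0.475 (0.383 to 0.586). The CD4 library thus held both at a fraction of the CD8 level, and the 2 intervals do not overlap. With few reads, Scarna3a's value is the least certain of the set, and Scarna3b's interval spans the 2-fold mark. The transcripts were aligned end to end, with 120 of 140 columns identical (85.7%) and a longest identical run of 23 bases. How reads that fit both genes were counted is not given in the sources used here, so the split of reads between the 2 is uncertain. Their sequences follow, with bases that are not identical in the partner in capitals, at chr1:159340283-159340422 (plus strand) for Scarna3a and chr12:80391613-80391751 (minus strand) for Scarna3b, on GRCm38.
Scarna3a: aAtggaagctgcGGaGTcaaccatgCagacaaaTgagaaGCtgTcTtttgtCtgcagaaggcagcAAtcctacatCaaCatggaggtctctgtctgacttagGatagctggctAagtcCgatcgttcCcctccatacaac
Scarna3b: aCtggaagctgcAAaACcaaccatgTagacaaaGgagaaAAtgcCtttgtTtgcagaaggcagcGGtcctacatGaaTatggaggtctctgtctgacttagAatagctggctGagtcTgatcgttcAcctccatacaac

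The make-up of the set does not depend on how the libraries are scaled against each other, and it differed between them. Scarna10 held 30.4% of the members' reads in CD4 (29.7% to 31.1%) and 23.2% in CD8 (22.8% to 23.7%). Scarna6 held 13.1% in CD4 (12.6% to 13.6%) and 11.7% in CD8 (11.4% to 12.1%). Both RNAs with mixed human counterparts thus took a larger share in CD4. Scarna17 had a smaller share there, at 18% in CD4 (17.4% to 18.5%) and 20.6% in CD8 (20.2% to 21%). So did Scarna13, at 14.3% in CD4 (13.8% to 14.8%) and 17.8% in CD8 (17.4% to 18.2%). Scarna9 was also smaller, at 7.08% in CD4 (6.71% to 7.47%) and 8.24% in CD8 (7.95% to 8.54%). The same held for Scarna2, at 5.66% in CD4 (5.33% to 6.01%) and 6.70% in CD8 (6.44% to 6.98%). Scarna8 was at 10.7% in CD4 and 10.6% in CD8, within counting error. Scarna3a and Scarna3b were under 1% in both libraries, and Scarna3a's share was smaller in CD4 (0.129%) than in CD8 (0.402%).

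**Figure D3:**
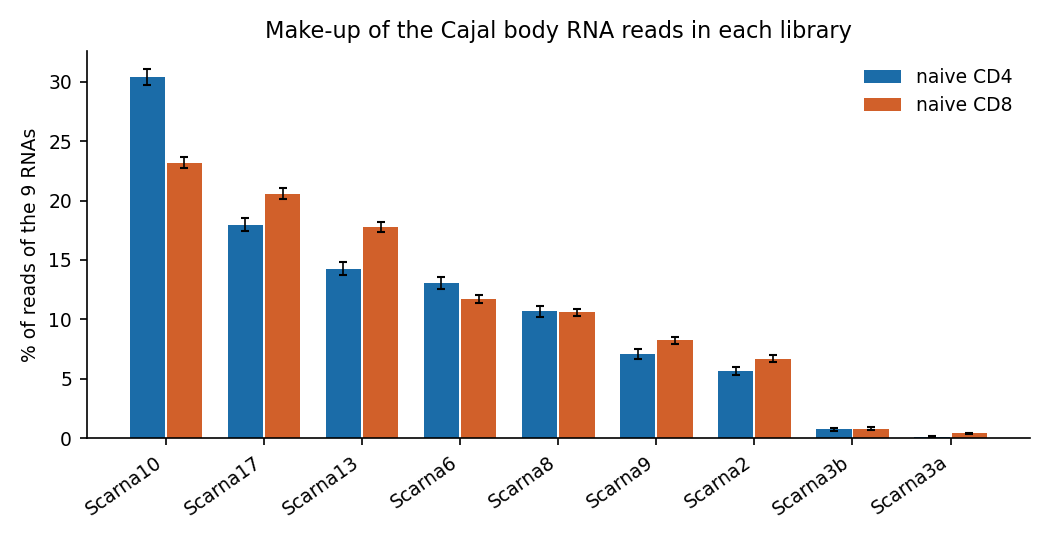
Bars give each RNA's percentage of all reads of the 9 members in the naive CD4 library (left bar) and the naive CD8 library (right bar), with exact 95% counting intervals. Scarna10 makes up 30.4% in CD4 and 23.2% in CD8, while Scarna17, Scarna13, Scarna9, Scarna2 and Scarna3a make up less in CD4.

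Host genes were read from GENCODE M21 as genes whose span holds the scaRNA on the same strand. There were 7 members with a host and 2 without, Scarna2 and Scarna17. The hosts were Cop1 for Scarna3a (Rfwd2 in the files), Dcaf5 for Scarna3b, Atg16l1 for Scarna6, Haus6 for Scarna8, Cep295 for Scarna9 (5830418K08Rik in the files), Ncapd2 for Scarna10 and the noncoding Snhg10 for Scarna13. In 6 of these the scaRNA lay in an intron, and the Scarna10 transcript overlapped 1 annotated exon of Ncapd2.

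No host was at least 2-fold different between the libraries, where 2.41% of compared symbols were that much higher in CD4 and 3.07% lower. At those shares, 0 calls among 7 hosts say little about the hosts. Of the hosts, 3 were above 0 and 4 below on the log2 scale, where 40.5% of compared symbols were below 0. All 7 hosted scaRNAs stood further toward CD8 than their hosts. Host log2 differences (CD4 minus CD8) ranged from -0.19 to 0.66 with a median of -0.03, against a median of -1.06 for the scaRNAs they hold. Dcaf5, a receptor subunit of a ubiquitin ligase, was at 20.6 RPKM in CD4 against 12.6 RPKM in CD8, a ratio of 1.63 (1.54 to 1.73), while Scarna3b inside it was lower in CD4. Atg16l1, an autophagy gene, was at 43.5 RPKM in CD4 against 37.6 RPKM in CD8 (ratio 1.16, 1.10 to 1.22). Ncapd2, a condensin subunit, was at 16.0 RPKM in CD4 against 15.1 RPKM in CD8 (ratio 1.06, 0.993 to 1.14). The ubiquitin ligase gene Rfwd2 was near equal at 11.6 RPKM in CD4 against 11.8 RPKM in CD8 (ratio 0.981, 0.911 to 1.06). Haus6, of the augmin complex of the spindle, was at 4.20 RPKM in CD4 against 4.95 RPKM in CD8 (ratio 0.849, 0.695 to 1.04). The centrosomal gene Cep295 was at 13.4 RPKM in CD4 against 14.7 RPKM in CD8 (ratio 0.913, 0.843 to 0.988).

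Snhg10 and Scarna13 were the widest apart in level. Snhg10, the spliced host RNA, had 15 reads in each library, 1.15 RPKM in CD4 against 1.19 RPKM in CD8, and its ratio of 0.964 has an interval of 0.439 to 2.12. Scarna13 was 328 times its host's RPKM in CD4 and 776 times in CD8. In CD4 the one hosted member below its host was Scarna3a, at 0.686 of the level of Rfwd2, while in CD8 it was at 4.13 times that level. The microRNA gene Mir3069 overlaps Scarna13, and Mir1843b and Mir1843a overlap Scarna3a and Scarna3b. Mir3069, Mir1843b and Mir1843, the older symbol of Mir1843a, were listed at 0 in both libraries. The sources used here do not give how reads on overlapping genes were shared out. The Scarna13 transcript is shown to place that overlap, with the 65 bases of the Mir3069 hairpin (bases 209 to 273) in capitals, at chr12:105031075-105031349 (minus strand) on GRCm38.
Scarna13: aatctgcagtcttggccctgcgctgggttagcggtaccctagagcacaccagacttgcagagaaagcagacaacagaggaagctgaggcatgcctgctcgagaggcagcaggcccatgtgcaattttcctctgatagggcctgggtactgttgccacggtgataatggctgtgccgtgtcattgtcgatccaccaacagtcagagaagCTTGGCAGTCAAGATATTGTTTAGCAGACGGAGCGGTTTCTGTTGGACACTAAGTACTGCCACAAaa

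**Figure D4:**
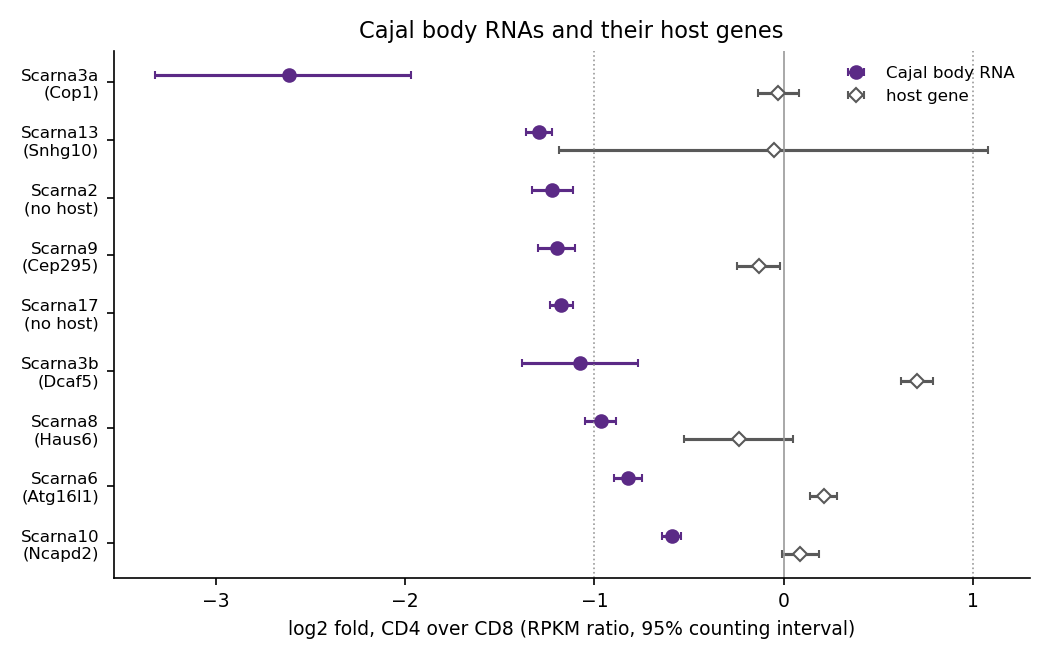
Log2 of the CD4 over CD8 RPKM ratio for each scaRNA (filled circles) and its host gene (open diamonds), with 95% counting intervals; dotted lines mark 2-fold and the solid line marks equal levels. Every circle lies left of 0 and every diamond lies right of its circle, with Scarna3a at a ratio of 0.163 and Scarna10 at 0.664.

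Genes for proteins of the guide particles were also lower in CD4, by less than the scaRNAs, and how many depended on the scaling. All 5 genes listed for C/D box particle proteins had log2 differences below 0, against 40.5% of compared symbols. Their median was -0.29, with none past the size rule. Fibrillarin (Fbl), the methyltransferase, was at 75.2 RPKM in CD4 against 105 RPKM in CD8 (ratio 0.720, 0.680 to 0.761). Nop58 was at 46.2 RPKM in CD4 against 62.9 RPKM in CD8, and Nop56 at 107 RPKM in CD4 against 113 RPKM in CD8. Nhp2l1 was at 62.6 RPKM in CD4 against 76.8 RPKM in CD8, and Rrp9, a U3 particle protein, at 34.4 RPKM in CD4 against 37.9 RPKM in CD8.

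The 4 core H/ACA protein genes were all below 0 as well, with a median of -0.39 and none past the size rule, where 40.5% of compared symbols were below 0. Dyskerin (Dkc1), the pseudouridine synthase, was at 38.1 RPKM in CD4 against 44.6 RPKM in CD8 (ratio 0.854, 0.810 to 0.900). Nhp2 was at 32.3 RPKM in CD4 against 47.7 RPKM in CD8 (ratio 0.676, 0.617 to 0.741). Nop10 was at 82.8 RPKM in CD4 against 113 RPKM in CD8, and Gar1 at 9.30 RPKM in CD4 against 12 RPKM in CD8. Scaling both libraries to an equal sum moves the log2 difference of genes far above 1 RPKM up by 0.21. It leaves the 4 H/ACA genes below 0 with a median of -0.20. It puts Nop56 and Rrp9 above 0, with a median of -0.08 over the 5 C/D genes. No share of compared symbols below 0 is given for this scaling.

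Genes of the Cajal body lay on both sides of 0. Of 7 measured, 4 were above 0 and 3 below on the log2 scale, where 40.5% of compared symbols were below 0. The median was 0.10 and none passed the size rule. Equal sums put all 7 above 0, but that scaling moves well-expressed genes of any kind up by 0.21. The 40.5% is for unscaled values, and no such share is given for equal sums. Coil, which encodes coilin, the scaffold of the body, was at 10.4 RPKM in CD4 against 8.56 RPKM in CD8 (ratio 1.21, 1.08 to 1.36). Nolc1 was at 44.9 RPKM in CD4 against 41.8 RPKM in CD8, and Ddx20 at 14.1 RPKM in CD4 against 15.5 RPKM in CD8. Tert, the telomerase catalytic subunit, was at 1.83 RPKM (154 reads) in CD4 against 0.922 RPKM (75 reads) in CD8. Wrap53, outside the naming rule and picked for its role as the protein that brings scaRNAs to Cajal bodies, was at 12 RPKM in CD4 against 13.4 RPKM in CD8 (ratio 0.889, 0.791 to 0.999).

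Other structured noncoding RNAs were lower in CD4 too. All 7 measured were below 0 and 5 were at least 2-fold lower in CD4, against 40.5% and 3.07% of all compared symbols. The median log2 difference was -1.62. With equal sums 4 were at least 2-fold lower, and no share of compared symbols is given for that scaling. The minor spliceosome RNAs differed most, with Rnu12 at 71.6 RPKM (264 reads) in CD4 against 549 RPKM (1951 reads) in CD8, a ratio of 0.130 (0.114 to 0.148). Rnu11 was at 174 RPKM (461 reads) in CD4 against 970 RPKM (2476 reads) in CD8, a ratio of 0.180 (0.162 to 0.198). The C/D box snoRNA Rnu73b was at 6611 RPKM in CD4 against 14117 RPKM in CD8, and Rmrp, the RNA of RNase MRP, at 9844 RPKM in CD4 against 18321 RPKM in CD8, ratios of 0.468 and 0.537. The other 3 of the list fall outside the rule for naming single genes and are named after their values were seen, but are part of the counts above. Of these, Rpph1 had a ratio of 0.266, the telomerase RNA Terc 0.314 and Vaultrc5 0.511. The ratios of 7 of the 9 scaRNAs lay inside the range of these RNAs, and those of Scarna6 and Scarna10 lay above it.

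MicroRNA loci lay on both sides of 0. Of 124 Mir symbols at 1 RPKM or more in at least 1 library, a 2-fold or larger difference was found upward in CD4 for 41.9% and downward for 29%, with a median log2 difference of 0.34. The shares count all 124, also loci without recovered reads in both libraries. A locus at 0 in 1 library and at 1 RPKM or more in the other passes the size rule by definition. No conclusion is drawn from these shares. Reads were few, with medians of 12 in CD4 and 10 in CD8 over the 87 with recovered reads in both. Of 12 measured long noncoding RNAs that host snoRNAs, 11 were below 0, against 40.5% of compared symbols. The median was -0.28 and the size rule called none, while equal sums left 7 below 0 with a median of -0.08. The 40.5% is for unscaled values and does not apply to equal sums. Gas5 was at 2862 RPKM in CD4 against 4931 RPKM in CD8, Snhg1 at 193 RPKM in CD4 against 204 RPKM in CD8, and Snhg9 at 8.71 RPKM in CD4 against 16.4 RPKM in CD8.

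Gene length moved with the difference between these libraries. The median log2 difference was 0.15 for genes of 4000 bases or more, 0.01 for 1000 to 1999 bases, -0.14 for 300 to 999 bases and -0.32 for the 17 other genes of 150 to 299 bases. It was 0.17 for the 102 other genes under 150 bases, the length class of 7 members. Of all 119 other genes under 300 bases, 86 are microRNA loci. Among the 119, 29.4% passed the size rule as higher in CD4 and 21.8% as lower in CD4. Of the 34 such genes with 100 reads or more over both libraries together, 22 were below 0, against 40.5% of compared symbols. The size rule was passed by 7 of the 34 as higher in CD4 and by 7 as lower in CD4, with a median of -0.36. The part of length, or of the recovery of short RNA in a library, in the scaRNA differences was not tested.

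**Figure D5:**
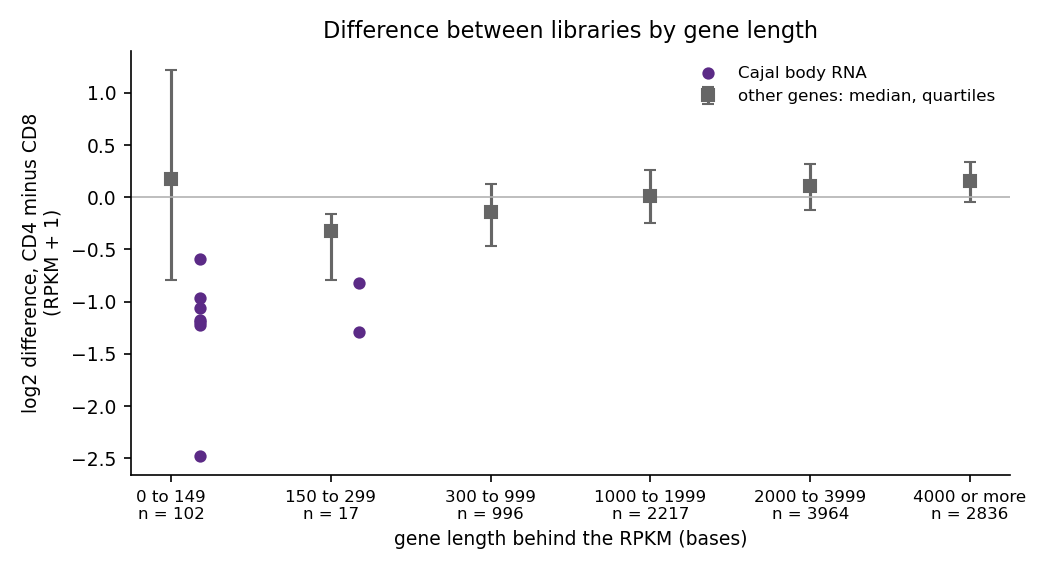
Log2 difference (CD4 minus CD8, RPKM + 1) of non-member genes by the length behind their RPKM, as median and quartiles, with the 9 scaRNAs as purple points. Medians run from 0.15 for genes of 4000 bases or more to -0.32 at 150 to 299 bases, with 0.17 and wide quartiles under 150 bases, and all scaRNAs lie below 0.

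The libraries fit their labels. Cd4 was at 305 RPKM in CD4 against 8.89 RPKM in CD8, and Cd8a at 2.50 RPKM in CD4 against 518 RPKM in CD8. Other cell types were low, and some markers of 2 lists were lower in CD4, as the scaRNAs were. Of the B cell markers, Cd79b was at 2.14 RPKM in CD4 against 28.8 RPKM in CD8, and Pax5 at 0.0675 RPKM in CD4 against 0.42 RPKM in CD8. The 4 NK cell markers summed to 34.7 RPKM in CD4 against 56.0 RPKM in CD8, nearly all of it Prf1, which CD8 T cells also express. Klra8 was at 0 in both, and Ncr1 went the other way, at 0.111 RPKM in CD4 against 0 in CD8. Klrb1c, the 1 NK marker past the size rule, was at 0.0308 RPKM (2 reads) in CD4 against 1.36 RPKM (85 reads) in CD8. The 5 myeloid markers summed to 3.74 RPKM in CD4 against 3.95 RPKM in CD8, and 5 erythroid markers to 0.226 RPKM in CD4 against 0.192 RPKM in CD8, with all but Alas2 at 0. Their part in the scaRNA differences was not tested.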

How the data were processed

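RNA depleted of ribosomal RNA was sequenced by SOLiD low-input chemistry, per the labels' protocols, as 1 library for each cell type. The submitters' processing notes name TopHat, HTSeq and build mm9 and give no version. The sources used here do not give the annotation, the strand setting or how multi-mapping reads were counted. The deposited values are RPKM made by the authors, on 26882 rows for 23167 symbols in each library, and their depth was read back as follows. Repeated rows held identical values and were counted once.

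Reads behind the RPKM were recovered, since RPKM is reads over length and library total. Low genes gave the ratio of the totals, and GENCODE M21 lengths, or RefSeq's less 1 base for small RNAs, gave their scale. The totals were 24741945 reads (CD4) and 23853921 reads (CD8). With them, 12695 of 12735 symbols above 0 in both libraries had a whole length within 0.0001 bases. Values fix reads and length only up to a shared multiple. The length nearest RefSeq's less 1 base was used for small RNAs, and otherwise the length nearest GENCODE's. A multiple too high would narrow an interval. The calculation was tested on simulated data. Simulated lengths came from the same annotation that the calculation was given. That test therefore cannot show that the multiples are right for the deposited values. Software was Python 3.11.15, scipy 1.17.1 and Biopython 1.88.

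No test across samples can be made from 1 library per group. Differences are log2((CD4 RPKM + 1)/(CD8 RPKM + 1)), with 2-fold as the size rule. Ratios are of the deposited RPKM, with exact 95% intervals on the reads. Named genes were all Scarna members, their hosts, the listed particle proteins and, of each other list, the 2 highest and the 2 most different. The members and lists were chosen with earlier results of these data known. GRCm38 annotation served for names, hosts and sequences, and no coordinates were converted. One B cell marker, and the sum that includes it, are not reported here.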

Additional observations from a re-analysis of the deposited data

How the results depend on the processing

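The scaling between the libraries changed how many members passed the 2-fold rule. Shares of all compared symbols are given for the main setting only, so the counts below stand without them. Once both libraries were scaled to sum to 1000000, 3 members were at least 2-fold lower in CD4, the median log2 difference was -0.96, and the median member was at 1434 in CD4 and 2418 in CD8. Centring on the median gene gave 7 members and a median of -1.26. A pseudocount of 5 RPKM gave 5 members, and so did asking for a counting interval wholly past 2-fold, a choice added after seeing the data. A pseudocount of 0.1 RPKM, no filter, filters at 5 RPKM or at 1 RPKM in both libraries, leaving out repeated symbols and leaving out members with fewer than 10 reads left 6 members. No member (0 of 9) was called higher in CD4 in any of these settings, and each of the 36 single-member values under 4 settings kept its sign. Medians of Snora and Snord members were not run. No paired analysis was possible because each group has 1 library. Depth limits Scarna3a (23 reads in CD4) and Snhg10 (15 reads in each library) most.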

Other observations

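Lists of genes around the guide particles had medians near 0, with single genes on both sides. Of 17 genes of RNA polymerase I and ribosomal RNA maturation, 0 passed the 2-fold rule, 10 were above 0 and 7 below on the log2 scale, and the median was 0.11. Of all compared symbols, 40.5% were below 0. Scaling both libraries to an equal sum put 15 of the 17 genes above 0 and 2 below. The 40.5% is for unscaled values, and no such share is given for equal sums, here or below. Polr1a, the largest subunit of polymerase I, was at 35.6 RPKM in CD4 against 21.7 RPKM in CD8, a ratio of 1.64 (1.57 to 1.71). Wdr12 was at 20.6 RPKM in CD4 against 15.7 RPKM in CD8, Emg1 at 212 RPKM in CD4 against 174 RPKM in CD8, and Ddx21, a nucleolar helicase, at 65.4 RPKM in CD4 against 83.7 RPKM in CD8. Of 11 assembly factors of the particles, 3 were above 0 and 8 below, with a median of -0.12 and 0 past the rule, and equal sums put 6 above 0 and 5 below. Nucleolin (Ncl) was at 44.3 RPKM in CD4 against 71.7 RPKM in CD8, a ratio of 0.618 (0.602 to 0.634). Npm1 was at 300.5 RPKM in CD4 against 412 RPKM in CD8. Naf1, an assembly factor of H/ACA particles, had 33 reads in CD4 and 93 in CD8, a ratio of 0.342 (0.223 to 0.514). At 0.447 RPKM in CD4 against 1.31 RPKM in CD8 it stayed under the 2-fold rule because of the pseudocount of 1 RPKM.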
